A study of Vitis vinifera with 54 samples.

Results

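The genes described here are 65 genes of the Chardonnay berry that were high at the enlargement period, low at the maturity period in every ecological zone, and still high at the color transition period in the zone HSB. They were selected on measured values of the same libraries. TPM of each library was divided by a median-of-ratios factor, which gives a scaled TPM, and the level of a gene in a group was the mean of log2(scaled TPM + 1) over the 3 replicates. A gene was kept when its level at the enlargement period was at least 3 above that at the maturity period in all 6 zones, and when its level at the color transition period in HSB minus that at the enlargement period in HSB was above -0.5. Of 25133 genes, 104 met the first condition and 65 of these met both, which is 62.5% of the 104. The rule also left out 3 named genes, which are not reported here.

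All libraries came from the flesh of Vitis vinifera L. Chardonnay berries, without skin or seeds, grown in Ningxia, China. The zones were HJZ, ZHYS, CC, XG, XLS and HSB, and berries were picked at 40 DAP (E, enlargement), 80 DAP (V, color transition, labelled veraison) and 120 DAP (M, maturity), with no treatment. DAP counts days from early flowering. A group is named by stage and zone, as in V-HSB, and each of the 18 groups had 3 biological replicates of 15 pooled fruits, which gave 54 libraries. Zone and stage were the only factors in the labels, so that vineyard, weather and sampling day cannot be told apart from zone.

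A grape berry first grows as a hard, green, acid fruit by cell division and expansion. At the color transition it softens and starts to store sugar, and many genes of the green fruit are shut down while ripening genes are switched on. Genes of the green berry therefore mark how far a berry has moved along this program, although Chardonnay, a white cultivar, stores no red pigment at this step.

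Every one of the 65 genes was found among the RefSeq genes of assembly ASM3070453v1, and all 65 are protein-coding, as are 98.9% of the 23256 listed genes that it holds. None of the 65 has a symbol other than its number, and the table gives no description, so no role is assigned to any of them, and protein or promoter sequences were not used here. In gene order 15 of the 65 lay within 5 genes of another of them, in 13 pairs, and there was 1 such pair among the other 39 genes that met the first condition. The sets differ in size and no rate for random sets of genes is given, so these counts are only a description. LOC100246409, LOC100241281, LOC100253171 and LOC100263547 stood in 1 run with no other gene between them. Direct neighbours were also LOC100252101 with LOC104877584, LOC100266865 with LOC104877664, and LOC100262648 with LOC100267804. Whether neighbouring genes are near-identical copies that share reads was not tested. LOC104879511 and LOC100249157 each overlap another gene in that assembly, and since the strand of the counting was not given in the sources used here, their values may hold reads of the partner.

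The berry label was checked on 5 ripening genes with symbols of their own, GRIP4, GRIP22 and GRIP61 (grape ripening-induced proteins) and TL1 and TL3 (thaumatin-like proteins). Their summed TPM was 29855 in V-HSB, 981 in E-HSB and 113966 in M-HSB, and in the other V groups it ran from 87662 in V-XLS to 121682 in V-ZHYS. V-HSB thus carried ripening transcripts above its own E level while the 65 genes were still high. The V-XLS replicates were unlike each other. Replicates 1 and 3 correlated best with the mean of M-XLS (r = 0.994 for both, across genes). Against the mean of the other V-XLS libraries, r was 0.99 for replicate 1, so close to 0.994, and 0.978 for replicate 3. Replicate 2 correlated best with V-XG (r = 0.982, against 0.958 with the mean of the other V-XLS libraries). Calls in V-XLS are given with and without its single libraries. TPM keeps no sequencing depth, so the precision of low values is known only from the replicates.

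The 65 genes took a large part of all TPM at the enlargement period. Their share was 46.0% ± 5.42 in E-ZHYS and 45.0% ± 2.70 in E-HJZ, and it was lowest in E-HSB with 14.0% ± 2.05 (SD, n = 3). In V-HSB the share was 12.2% ± 2.38, with 14.9%, 10.5% and 11.1% in the 3 libraries, which overlapped the range of E-HSB, 11.6% to 15.2%. The 15 V libraries of the other zones gave at most 1.93% (V-ZHYS replicate 3), and no group of the maturity period averaged above 0.299%. Because these values follow from the selection, they carry no test. In bulk flesh, fewer cells that express the genes and less RNA per cell cannot be told apart.

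**Figure D1:**
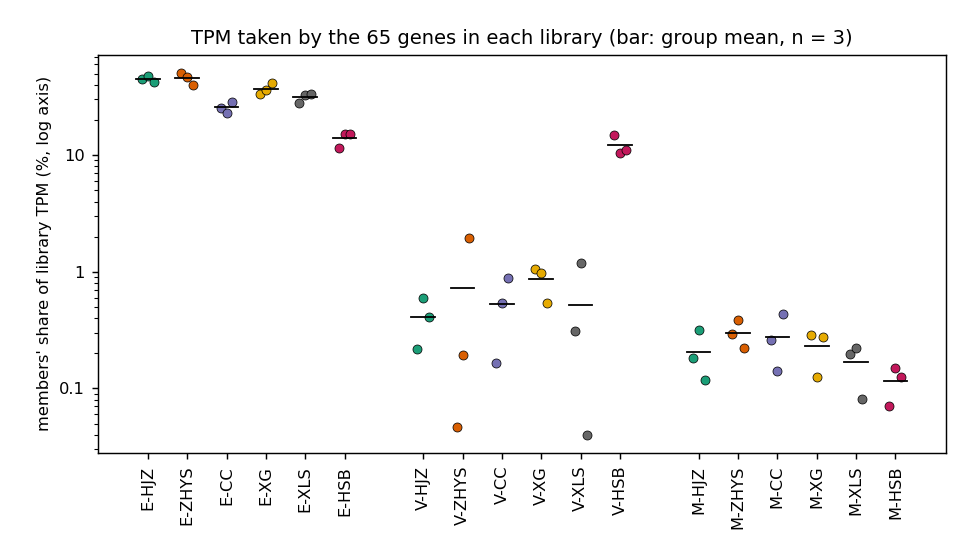
Share of the TPM of a library that fell on the 65 genes, in percent on a log axis, for the 18 groups; points are libraries and bars group means (n = 3). The 3 V-HSB libraries lie between 10.5% and 14.9%, next to E-HSB, while the V libraries of the other zones lie at or below 1.93%.

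Most of that share came from 5 genes. LOC100252101 alone held 9.93% of TPM in E-ZHYS, 4.28% in E-HSB and 3.70% in V-HSB on average. LOC100266074 held 9.88% in E-HJZ, but 0.884% in E-HSB and 1.22% in V-HSB. LOC100240860, LOC100255900 and LOC100246409 were the others. Without these 5, the remaining 60 genes still took 3.59% ± 0.761 of TPM in V-HSB and 4.71% ± 0.571 in E-HSB (SD, n = 3), against at most 0.137% on average in another V group.

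LOC100252101 had scaled TPM values of 24938, 33747 and 30531 in E-HSB and of 37909, 24047 and 24039 in V-HSB. In the V libraries of the other zones it ran from 3.76 to 93.3, and in M-HSB it was 9.86, 4.61 and 4.57. V-HSB thus overlapped E-HSB and lay far above every other V library. LOC100246409 and its neighbour LOC100241281 showed the same order. LOC100246409 had 23010.4, 17901 and 11433 in V-HSB and at most 101 in the other V libraries, and LOC100241281 had 19438, 14557 and 10819.6 and at most 56.5. The third of the run, LOC100253171, was lower, with 355, 253 and 167 in V-HSB and at most 12.7 elsewhere at V. The fourth, LOC100263547, had 19.6, 14.2 and 13.1 in V-HSB. That all 4 genes of the run stayed high in V-HSB follows from the selection, and their levels there spanned a wide range.

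LOC100266074 and LOC100255900 were the exceptions among the most abundant genes. LOC100266074 had 10052, 5045 and 13217 in V-HSB, and V-ZHYS replicate 3 reached 14978 while replicates 1 and 2 of V-ZHYS had 83.3 and 750.4. LOC100255900 had 5870.4, 2765 and 10582 in V-HSB, and V-XLS replicate 2 and V-ZHYS replicate 3 had 4509.6 and 4427. In both genes, and in LOC100240959, the V-HSB libraries were not all above every V library of the other zones, whereas in the other 62 genes they were. The selection favours genes high in V-HSB, so this count is only a description. Its share over all genes is not given.

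Other genes were near or at 0 at V outside HSB. LOC104882072 had 1116, 722 and 492 in V-HSB and was listed at 0 in all V libraries of HJZ, ZHYS, CC and XG, with 1, 4.67 and 0.33 in V-XLS. LOC100251591 had 802, 693 and 305 in V-HSB and at most 7.37 elsewhere at V, in V-XLS replicate 2. LOC100251442 had 83.1, 57.5 and 57.5 in V-HSB and at most 0.17 elsewhere at V. In all, 8 of the 65 genes were listed at 0 in the 3 libraries of some V group outside HSB, and 16 had a level below 1 (less than 1 scaled TPM) in all 5 of these V groups. At the other end, 13 genes kept at least 10 scaled TPM, on the level scale, in all 5.

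**Figure D2:**
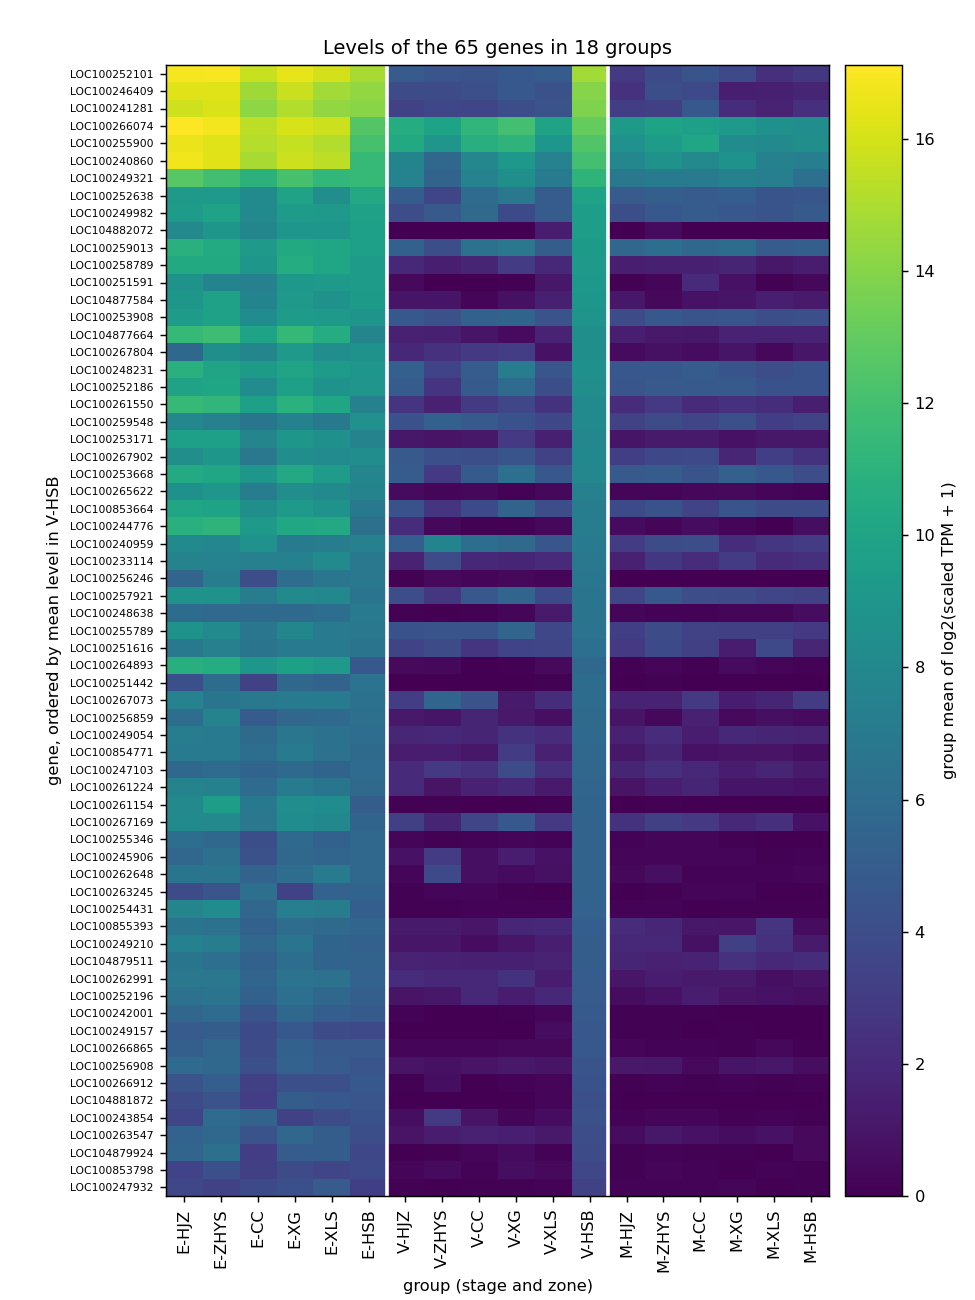
Level, the group mean of log2(scaled TPM + 1), of each of the 65 genes (rows, ordered by their mean in V-HSB) in the 18 groups (columns, E, V and M from left to right). The V-HSB column resembles the E columns, and the other V columns resemble the M columns, with medians over the genes of 6.49 in V-HSB and between 1.56 and 1.77 in the other V groups.

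In HSB the change from E to V, a difference of levels, ran from -0.47 to 0.97 with a median of -0.23. It was above 0 in 17 genes, and the V-HSB and E-HSB libraries overlapped in 57 of the 65. These values chose the genes. In the other zones the median E to V change of the same genes was -5.48 in HJZ, -6.00 in ZHYS, -4.11 in CC, -4.65 in XG and -4.90 in XLS, while the median over all 25133 genes was between -0.01 and 0 in each of these zones. The other 39 genes with the same fall from E to M also dropped from E to V outside HSB, with median changes of -4.72 in HJZ, -3.83 in ZHYS, -4.18 in CC, -4.02 in XG and -3.98 in XLS. Only LOC100240959 stayed within 0.5 of its E level outside HSB, with -0.23 in ZHYS, and it did not in the other 4 zones. From V to M the genes fell in HSB by a median of 4.72.

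The limit of -0.5 lay within a continuous range. Just inside it were LOC100259548, LOC100240959 and LOC100251442 (-0.47 each), and just outside LOC100262819 (-0.50), LOC100252705 (-0.52) and LOC100260701 (-0.53). The 39 genes that met only the first condition had a median E to V change of -0.71 in HSB, and in 36 of them too the V-HSB libraries were above all V libraries of the other zones. The largest rises were those of LOC100264893 (0.97), LOC100249157 (0.90), LOC100244776 (0.85), LOC104877664 (0.74) and LOC100261550 (0.60). LOC100244776 had 68.2, 98.7 and 72.7 scaled TPM in E-HSB and 112, 156 and 166 in V-HSB, without overlap. LOC100264893 had 18.7, 16.6 and 54.6 in E-HSB and 44.4, 21.8 and 138 in V-HSB, so its libraries overlapped. Those of LOC100249157, LOC104877664 and LOC100261550 overlapped as well, with 24.7, 11.4 and 6.56 in E-HSB and 11.7, 28.1 and 41.4 in V-HSB for LOC100249157.

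These 5 genes were lower in E-HSB than in the other E groups on average. LOC100264893 ran from 462 to 2290.1 scaled TPM in the E libraries of the other zones, and its level in E-HSB was 5.14 below the mean of the other E groups. LOC100244776 was 4.04 below that mean, LOC104877664 3.26 below, LOC100261550 3.18 below and LOC100249157 0.74 below. The largest gap among the abundant genes was that of LOC100240860, with 2207, 2769 and 3598 in E-HSB and 26072 to 121384 in the other E libraries, a gap of 4.38. Of the 17 genes whose V-HSB level was above E-HSB, 14 had their lowest E level of the 6 zones in HSB, and of the 48 others 14 did. Across the 65 genes, the level in E-HSB minus the mean of the other E groups and the E to V change in HSB had a Pearson r of -0.78 and a Spearman rho of -0.65. Genes are not independent replicates, and both measures hold the same E-HSB libraries with opposite sign, so that errors in them alone give a negative relation.

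**Figure D3:**
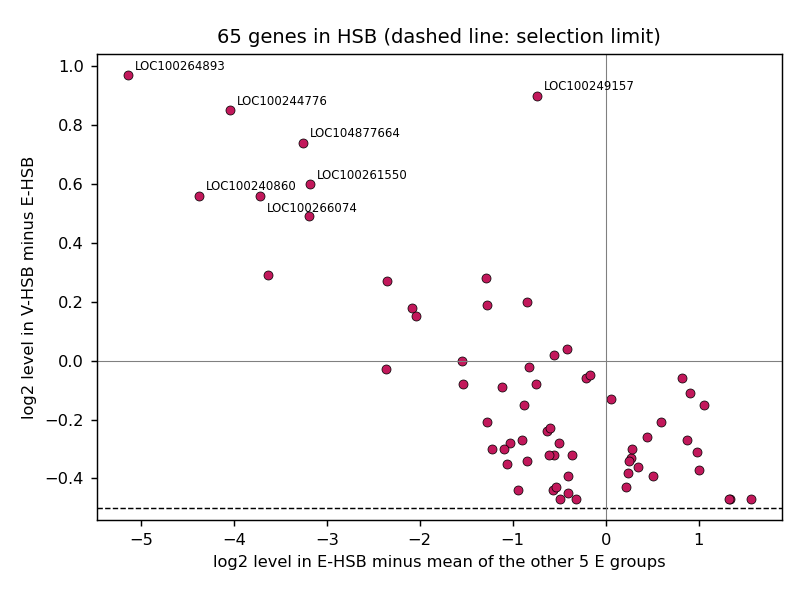
For each of the 65 genes, the level in E-HSB minus the mean of the other E groups (x axis, log2) and the level in V-HSB minus E-HSB (y axis, log2); the dashed line is the selection limit of -0.5. LOC100264893, with the largest rise (0.97), lies farthest to the left, 5.14 below the other zones. LOC100249157 rose by 0.90 from a level only 0.74 below them. In both genes the E-HSB and V-HSB libraries overlapped.

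The V groups of HJZ, ZHYS, CC, XG and XLS were not used in the selection, and here the genes could be tested. Each of these V groups was compared with the mean of the other 4 by limma on log2(scaled TPM + 1), two-sided, with all 54 libraries in one fit, and a gene was called at a Benjamini-Hochberg adjusted p below 0.05 over all 25133 genes and a log2 difference beyond 1. A difference of any kind among the 5 groups (moderated F test, adjusted p below 0.05) was found in 39 of the 65 genes, or 60.0%, close to the 63.3% of all genes. In at least 1 of the 5 single comparisons 30 of the 65 genes were called, against 9.49% of all genes, mostly in ZHYS and XG. These calls depend on 1 spread per gene taken over all 54 libraries. For the 11 genes called lower in V-ZHYS, the median SE was 0.57 here and 0.97 in a fit of the 15 V libraries alone. That fit called 0 of the 65 genes lower in V-ZHYS, and fewer higher in V-XG than here.

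In V-ZHYS 7 of the 65 genes were higher, against 3.01% of all genes called in this direction, and 11 were lower, against 1.87%. In V-XG 17 genes were higher, against 1.96%, and 2 were lower, against 2.78%. In V-HJZ 1 gene was higher (0.601% of all genes) and 1 lower (0.804%), in V-CC 2 were higher (1.68%) and 1 lower (0.529%), and in V-XLS 2 were higher (0.836%) and 4 lower (0.891%). The median log2 difference of the 65 genes was -0.14 in ZHYS and 0.11 in XG, against 0.00 over all genes in both, with 24 of the 65 above and 41 below 0 in ZHYS, and 39 above and 26 below 0 in XG. The comparisons share libraries and are not independent of each other. On TPM without the scaling factors, 6 of the 65 genes were higher and 11 lower in V-ZHYS, and 17 were higher and 1 lower in V-XG. The balance of calls over all genes did move, from 151 higher and 202 lower to 204 and 143 in V-HJZ, from 421 and 133 to 219 and 317 in V-CC, from 493 and 699 to 600 and 565 in V-XG, and from 210 and 224 to 303 and 141 in V-XLS.

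The 7 genes higher in V-ZHYS were LOC100262648, LOC100267073, LOC100243854, LOC100240959, LOC100233114, LOC100245906 and LOC100259548. LOC100262648 had 16.7, 12.2 and 10.4 scaled TPM in V-ZHYS and between 0 and 2.38 in the V libraries of HJZ, CC, XG and XLS. The groups did not overlap, and the log2 difference was 3.24 (SE 0.19, limma adjusted p = 2.53e-16). V-HSB was higher still, with 54.2, 36.6 and 40.0. Its direct neighbour LOC100267804 had 5.10, 4.77 and 3.85 in V-ZHYS and was not called there (log2 difference 0.27, SE 0.24).

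LOC100267073 was ordered most finely among the zones. It had 51.5, 39.7 and 48.0 scaled TPM in V-ZHYS, 22.8, 19.2 and 18.3 in V-CC, 8, 7.70 and 6.71 in V-HJZ, 3.34, 5.69 and 2.80 in V-XLS and 2.01, 1.07 and 1.23 in V-XG. No neighbours in this order overlapped. It was called higher in V-ZHYS (2.81, SE 0.12, limma adjusted p = 6.20e-20) and V-CC (1.35, SE 0.12, adjusted p = 5.78e-11) and lower in V-XG (-2.56, SE 0.12, adjusted p = 3.60e-19) and V-XLS (-1.31, SE 0.12, adjusted p = 3.34e-10), and it was not called in V-HJZ (-0.29). In V-XLS its difference ran from -1.55 to -1.14 without single V-XLS libraries, and it was called each time. Its V-HSB libraries had 67.0, 59.9 and 66.9.

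LOC100240959 lay nearest to its E level at V outside HSB, at 59.8% of the way from the M to the E level on average over the 5 zones. It had 155, 351 and 161 scaled TPM in V-ZHYS, which overlapped the 174, 119.7 and 97.4 of V-HSB, and 58.7 to 61.4 in V-XG. In V-XLS it had 10, 183 and 5.81, so that replicate 2 was as high as V-ZHYS and replicates 1 and 3 were near the M-XLS range of 5.30 to 5.88. Its log2 difference was 2.24 in V-ZHYS (SE 0.42, limma adjusted p = 3.10e-05) and -1.64 in V-XLS (SE 0.42, adjusted p = 0.00283). With only the 15 V libraries in the fit the V-XLS call was lost (adjusted p = 0.185), as it was without V-XLS replicate 1 (-1.08, adjusted p = 0.117) or replicate 3 (-0.74, adjusted p = 0.263). Without the high replicate 2 limma called the gene lower in V-XLS (-3.11, adjusted p = 1.20e-14).

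The 11 genes lower in V-ZHYS were LOC100240860, LOC100249321, LOC100252638, LOC100259013, LOC100248231, LOC100252186, LOC100261550, LOC100253668, LOC100853664, LOC100257921 and LOC100267169, and all 11 were also among the 17 genes higher in V-XG. LOC100252186 had 0.39, 4.08 and 30.5 scaled TPM in V-ZHYS and 84.1, 66.4 and 43.1 in V-XG, with log2 differences of -2.37 (SE 0.58, limma adjusted p = 0.00089) and 1.86 (SE 0.58, adjusted p = 0.00839). LOC100248231 had 0.88, 10.1 and 59.5 in V-ZHYS and 194, 165 and 113 in V-XG, where its difference was the largest rise of this comparison (2.72, SE 0.62, adjusted p = 0.000421). LOC100252638 had 0.77, 8.24 and 107 in V-ZHYS and 188, 120.2 and 65.2 in V-XG (1.96, SE 0.57, adjusted p = 0.00497 in V-XG).

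These 11 genes went up and down together from library to library, and their replicates spread widely. In V-ZHYS all 11 were lowest in replicate 1 and highest in replicate 3, and their median level was 0.48, 2.85 and 5.60 in replicates 1, 2 and 3. In V-XLS all 11 were highest in replicate 2, with medians of 4.72, 6.34 and 2.51. In V-XG the medians were 6.67, 6.39 and 5.61, and in V-HSB 8.78, 8.26 and 8.34. Over the 15 V libraries outside HSB the pairwise r of these genes ran from 0.85 to 0.98, as a description of genes that share these libraries and were grouped by their values in them.

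These counts changed with single libraries. Shares over all genes in the fits of this paragraph are not given, so the shifts are not set against those of other genes. Without V-ZHYS replicate 1 limma called 0 of the 65 genes lower in V-ZHYS (2 at an unadjusted p below 0.05 and a difference beyond 1), and without V-ZHYS replicate 3 there were 19. With the V-XLS group left out there were 12, and 16 genes were higher in V-XG. In V-XG the count of genes higher was 6 without V-XG replicate 1, and in a fit of the 15 V libraries alone the counts were 0 lower in V-ZHYS (3 at an unadjusted p below 0.05) and 4 higher in V-XG. The log2 differences were the same in that fit, -2.37 to -1.32 for the 11 genes in V-ZHYS and 1.09 to 2.72 for the 17 in V-XG, and their median SE was larger, 0.97 in place of 0.57 and 0.87 in place of 0.51. The 7 genes higher in V-ZHYS numbered 6 in that fit and 6 or 7 without any single 1 of these 15 libraries.

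**Figure D4:**
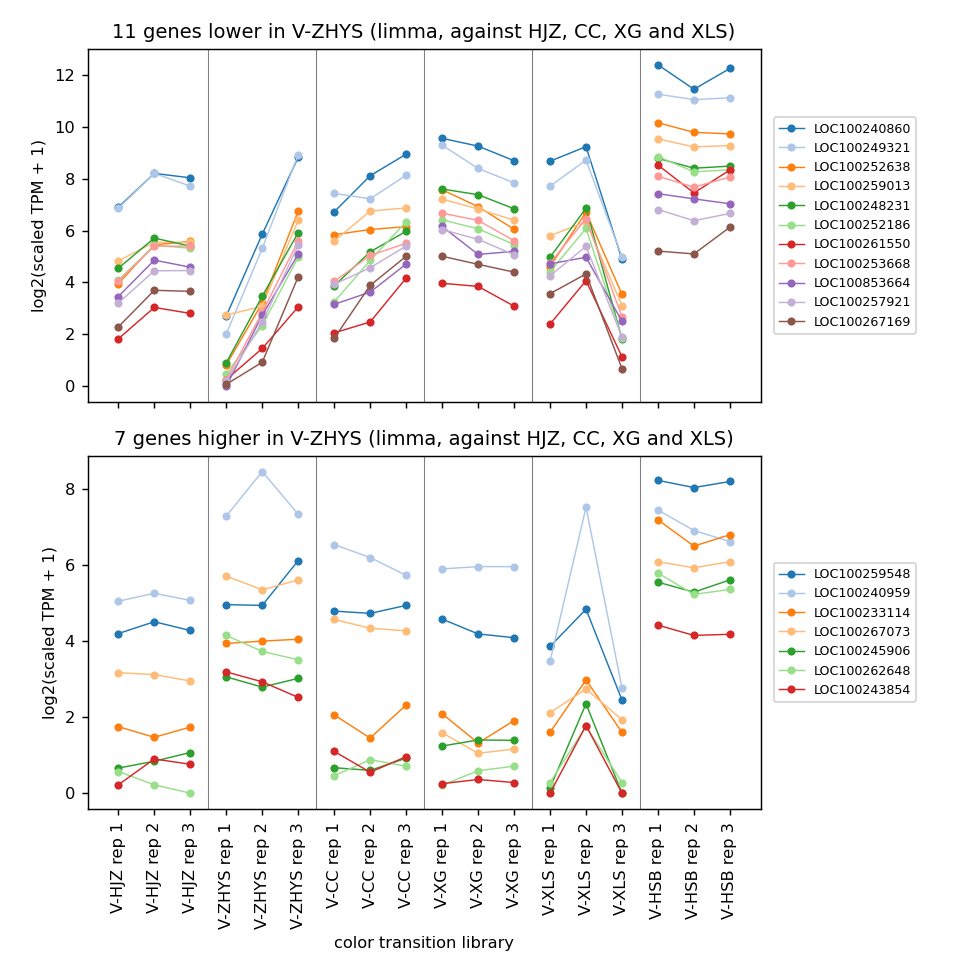
Values of log2(scaled TPM + 1) in the 18 V libraries for the 11 genes called lower in V-ZHYS (top) and the 7 called higher (bottom) by limma against HJZ, CC, XG and XLS; lines join replicates of a group, which have no order. In the top panel the median is 0.48 in V-ZHYS replicate 1 and 5.60 in replicate 3, whereas in the bottom panel LOC100262648 has 16.7, 12.2 and 10.4 scaled TPM in the 3 V-ZHYS libraries.

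Of the other 6 genes higher in V-XG, LOC100247103 differed most relative to its error (1.48, SE 0.15, limma adjusted p = 1.48e-10). The others were LOC100258789, LOC100267804, LOC100253171, LOC100255789 and LOC100854771. LOC100249982 was lower in V-XG, with 15.1, 14.5 and 10.6 scaled TPM, and higher in V-CC, with 53.6, 70.2 and 57.7, against 953, 755 and 658 in V-HSB. Its log2 difference was 1.52 in V-CC (SE 0.17, adjusted p = 3.24e-09) and -1.10 in V-XG (SE 0.17, adjusted p = 1.05e-06).

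Single genes were called in the remaining zones. LOC100244776 had 2.60, 2.90 and 5.37 scaled TPM in V-HJZ and at most 0.77 in the V libraries of ZHYS, CC, XG and XLS, a log2 difference of 1.93 (SE 0.25, limma adjusted p = 1.84e-07). LOC100262648 was called lower in V-HJZ (-1.18, SE 0.19, limma adjusted p = 1.15e-05), with 0.48, 0.16 and 0 scaled TPM. These values overlapped V-CC, V-XG and V-XLS, and the high V-ZHYS libraries entered the mean it was compared with. LOC100251616 was lower in V-CC, with 4.93, 4.94 and 5.33 against 8.65 to 15.8 in the other 4 zones (-1.01, SE 0.11, adjusted p = 4.14e-09), a difference so near the limit of 1 that leaving out any of 9 single libraries ended the call (-0.95 without V-XLS replicate 2). LOC100267804 was lower in V-XLS, with 0.29, 3.42 and 0 (-1.78, SE 0.24, adjusted p = 5.28e-07), and the difference ran from -2.43 to -1.36 without single V-XLS libraries. LOC100267902 was called lower there as well (-1.06, adjusted p = 2.01e-05), but its difference was -0.85 without replicate 1 and -0.78 without replicate 3, short of the limit of 1. Without replicate 2 it was called, with a larger difference (-1.54, limma adjusted p = 1.59e-10). The 2 genes higher in V-XLS, LOC104882072 (1.30, adjusted p = 0.00283) and LOC100248638 (1.17, adjusted p = 0.00126), rested on replicate 2, without which they had differences of 0.70 (adjusted p = 0.119) and 0.31 (adjusted p = 0.23). LOC100248638 had 0.25, 6.90 and 0.41 in V-XLS and at most 0.33 in the other V libraries outside HSB.

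V-XLS replicate 2 was the highest of its group in 54 of the 65 genes. Without it 14 genes were called lower in V-XLS in place of 4, and the count over all genes rose as well. The median replicate SD of the 65 genes on the log2 scale was 0.95 in V-XLS, and between 0.21 and 0.34 in the other V groups, V-HSB included (0.28). For all genes with a mean scaled TPM of at least 1 it was 0.26 in V-XLS and 0.12 in V-HSB. In V-HSB replicate 1 was the highest in 54 of the 65 genes.

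The distance of the V level above the M level differed among the zones. It was above 1 on the log2 scale in 22 of the 65 genes in XG, 13 in HJZ, 9 in XLS, 8 in ZHYS and 7 in CC. In HSB it was above 1 in all 65, which the selection rule alone requires. Shares over all genes are not given. Without single V-XLS libraries the count in XLS was 8 (replicate 1), 3 (replicate 2) or 23 (replicate 3). The V level was below the M level in 35 genes in ZHYS, 24 in CC, 17 in HJZ, 15 in XG and 12 in XLS. Of the other 39 genes with the same fall from E to M, 15 had a V level more than 1 above M in ZHYS, 10 in XG, 10 in XLS, 9 in CC and 4 in HJZ. LOC100249210 had a lower mean level at V than at M in each zone outside HSB. For LOC100249210 this difference ran from -2.21 in XG to -0.15 in CC, and its V and M libraries overlapped in CC and in ZHYS. LOC100249210 had 0.97, 1.63 and 0.59 scaled TPM in V-XG and 13, 3.30 and 12.6 in M-XG, and 39.7, 31.8 and 26.5 in V-HSB. LOC104879511 and LOC100855393 also had a V level below M in 4 of these zones, all but ZHYS for the first and all but XG for the second. Some of these differences were small, such as -0.12 and -0.07 in CC. Of the genes highest relative to E and M, LOC100255789 had 60.5, 49.6 and 34.3 in V-XG and 112, 78.8 and 79.4 in V-HSB, and LOC100259548 had 30.2, 29.7 and 68.7 in V-ZHYS and 299, 263 and 292 in V-HSB. The M groups were used in the selection, so no test is given.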

How the data were processed

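RNA of berry flesh was sequenced on the Illumina HiSeq-2000 platform. The authors mapped clean reads with HISAT2, counted fragments per gene with featureCounts and deposited TPM (rounded to 2 decimals; replicates not pooled), and tool versions were not given in the sources used here. Their methods link an Ensembl Plants release of the V. vinifera annotation, but genes in the deposited table carry NCBI gene numbers, so the assembly behind the TPM was not settled and no coordinates are given. Here TPM was divided by median-of-ratios factors (0.644 to 1.45, from 16546 genes above 0 in every library), and 1 was added before log2; differences on this scale understate changes of low genes. limma 3.58.1 (R 4.3.3) fitted 18 group means with a variance trend (36 residual degrees of freedom) to all genes with no filter. It was run on simulated data with independent normal noise and 1 SD per gene for all groups. That run could not show errors from unequal spread among groups or from genes that move together. The members, gene lists and tests were chosen with earlier results of these data known. Levels at E, at M and in V-HSB were used by the rule and were not tested. Genes named in the text were the 10 highest in V-HSB, the 5 largest and 5 smallest E to V changes in HSB with the 3 genes just outside the limit, the 2 largest rises and falls of each comparison, and the 5 highest and lowest V levels relative to E and M over the 5 zones outside HSB; the others were named after their values were seen. Lists and markers planned by gene description, and promoter motifs, could not be applied, since no table held descriptions or sequences. Alternatives were TPM without factors, a pseudocount of 0.1, a minimum mean of 1, the 15 V libraries alone and a replicate block. V-XLS or each of these 15 libraries was also left out, and for the selection rule each E-HSB or V-HSB library. The count of V above M in XLS without single V-XLS libraries was added after seeing the data. Python 3.11.15, numpy 2.4.6, pandas 2.3.3, scipy 1.17.1 and matplotlib 3.10.9 were used.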

Additional observations from a re-analysis of the deposited data

How the results depend on the processing

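Counts are of the 65 genes unless stated, and the cause of each shift was not tested. Counts over all genes in these fits are given only where stated. In a fit of the 15 V libraries alone, 0 genes were lower in V-ZHYS (in place of 11), 4 higher in V-XG (17), 1 higher in V-XLS (2), and 17 differed in the F test (39). A pseudocount of 0.1 gave 2 genes lower in V-HJZ, 4 higher and 4 lower in V-CC, 6 lower in V-XG and 9 lower in V-XLS, and 223 genes then met the selection rule in place of 65. Over all genes that pseudocount raised the calls, for example from 757 to 1406 higher in V-ZHYS and from 493 to 1095 higher in V-XG. Leaving out V-XLS gave 2 genes lower in V-HJZ and 4 lower in V-XG, and TPM without factors 1 lower in V-XG. With a limit of 0 on the E to V change in HSB 17 genes met the rule, with -1 95, and on TPM without factors 58, of which 45 were among the 65.

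Each of the 15 V libraries outside HSB was left out in turn, and the other libraries of the fit were always kept. This gave 6 to 7 genes higher and 0 to 19 lower in V-ZHYS, and 6 to 20 higher and 1 to 3 lower in V-XG. In V-CC it gave 2 to 4 higher and 0 to 1 lower, and in V-HJZ 1 to 1 higher and 1 to 2 lower. In V-XLS 1 to 3 were higher and 2 to 14 lower. The F test gave 32 to 42 genes. V-XLS decided its own counts over all genes, where 861 genes were lower without replicate 2 and 89 without replicate 3, in place of 224. The rule was met by 50 to 75 genes without single E-HSB or V-HSB libraries, and 49 of the 50 found without V-HSB replicate 1 were among the 65.

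Replicate numbers did not meet the criterion for pairing, a correlation above 0.1 in every pair. Deviations of same-numbered V libraries correlated between -0.45 and 0.52 over 16020 genes, above 0.1 in 12 of 30 pairs (in all 3 numbers for V-ZHYS with V-CC and for V-XG with V-XLS), and 6 of 15 libraries were closest to their own number. With the replicate number as a block, 7 genes were higher and 11 lower in V-ZHYS, 16 higher and 2 lower in V-XG, and 38 differed in the F test, with the other counts as before. For the genes named as the largest rises and falls of each comparison, 329 alternative values kept the call, 24 lost it and 0 reversed. The other called genes are not in this tally. Of the alternative values of the counts, 205 were classed as the same and 34 as moved. The precision of low TPM values is limited by an unknown depth.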
